A study of Mus musculus with 2 samples.

Results

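Endothelial cells line the blood vessels, and in the mouse embryo the first vessels of the brain grow inward from a plexus around the neural tube. Their growth depends on receptors for vascular endothelial growth factor (VEGF), angiopoietin, apelin, adrenomedullin and bone morphogenetic proteins, on transcription factors of the Ets and SoxF families, and on surface proteins that join the cells to each other and later tighten them into a barrier. The 35 genes described here are endothelial genes of these kinds, found by gene name among the 37071 gene names on the array. They comprise 11 receptors, 9 transcription factors, 10 surface and junction proteins and 5 secreted or intracellular proteins.

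RNA from the forebrain and midbrain of mouse embryos at E10.5 was hybridised to 2 Agilent SurePrint G3 arrays, each with 1 wild type sample (C57BL/6, Cy3) and 1 sample homozygous for the *luxoid* allele of *Plzf* (*Plzf* lu/lu, Cy5). *Plzf* encodes a zinc finger transcription factor, and a base substitution in the *luxoid* allele cuts its protein short. The labels name both arrays biological replicates, and the number of embryos behind each sample was not given in the sources used here. Cy5 held *Plzf* lu/lu and Cy3 wild type on both arrays, so genotype, dye and the strain on the label cannot be told apart. Each value is a processed signal (the intensity of a spot with its background removed and the dyes balanced) or the log2 ratio of the *Plzf* lu/lu signal to that of wild type, which is negative where *Plzf* lu/lu was lower. *Zbtb16*, which encodes Plzf and is in the study's own list of changed genes, had a signal of 433 in wild type and 172 in *Plzf* lu/lu on array 1, and of 546 and 211 on array 2.

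The median log2 ratio of these endothelial genes was below 0 on both arrays. Among the 10 members bright enough to pass a signal filter, *Emcn*, *Icam2* and *Plvap*, which encode surface proteins, were the 3 that stood beyond 1.3-fold lower on each array. With the dimmer members included, as long as their spots were well above background in all 4 channels, 13 of 34 members were lower by this rule, among them the receptors *Kdr*, *Tek*, *Tie1*, *Eng* and *Aplnr*. This count of 13, beside 2.07% of all genes well above background, fell to 7 with normexp background correction and loess, beside 0.588%. *Tek*, *Tie1* and *Aplnr* were among those that lost the call. At a threshold of 1.5-fold the count was 3, and the share of all genes at that threshold is not given here. The median log2 ratio was -0.48 over the 10 members and -0.54 over the 34. No member was higher by more than 1.3-fold on both arrays under either filter. In whole tissue, fewer endothelial cells and less RNA per cell cannot be told apart.

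The signal filter required every channel of each array to have a processed signal over 200 and a signal-to-noise ratio of 5 or more, and 10600 genes passed. Of these, 0.736% were lower and 2.58% higher beyond 1.3-fold on each array, against 3 and 0 of the 10 members. The median ratio of all 10600 genes was 0.01. Of the 23283 genes well above background in all 4 channels, 2.07% were lower and 2.52% higher, against 13 and 0 of 34 members, and the median of these genes was 0.00. Of the 13, 10 did not pass the signal filter, beside 3.18% lower among all genes that failed it while well above background. A lower *Plzf* lu/lu signal can itself make a gene fail the filter, as in *Kdr*, so this split is not a test by brightness. *Cd93*, *Emcn*, *Icam2* and *Plvap* belong to the list of changed genes that the study drew from these same arrays, so their direction is not independent evidence. Without these 4 genes, 0 of 7 members past the signal filter and 9 of 30 well above background were lower.

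In the limma fit with Benjamini-Hochberg adjustment over the 10600 genes, 0 of the 10 members had an adjusted p under 0.05, a level that 0.0283% of the genes reached; with normexp and centring it was 5 of the 10, beside 14.7% of the genes. At an unadjusted p under 0.05, 7 of the 10 were lower, beside 12.1% of the genes tested. *Emcn*, *Icam2* and *Plvap* each had an adjusted p of 0.0508 from limma and were lower on 2 of 2 arrays, and over 18 fits, this one and those with other settings and filters, the adjusted p of these 3 genes lay between 0.00358 and 0.525. Among the 34 members well above background, limma again called 0 after adjustment, the lowest adjusted p was 0.252, and at an unadjusted p under 0.05 22 were lower, beside 8.11% of the genes, and 1 was higher. With normexp and centring on the genes well above background, 24 of the 34 had an adjusted p under 0.05, a level that 46% of all those genes reached. With 2 arrays the smallest p of an exact sign-flip test is 0.5, so precision is limited by the number of arrays, and the p-values measure only the spread between these arrays.

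**Figure D1:**
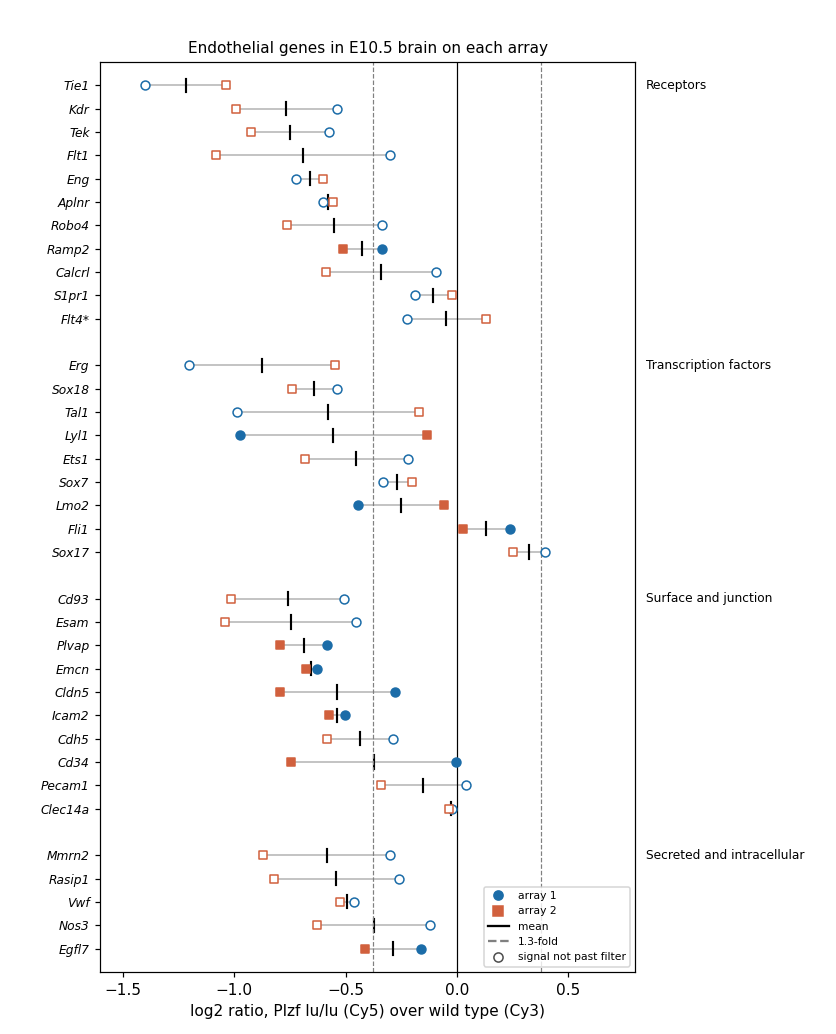
Log2 ratio of Cy5 (*Plzf* lu/lu) to Cy3 (wild type) for the 35 endothelial genes, grouped by role and ordered by their mean. Circles are array 1, squares array 2, vertical ticks the mean of the arrays, and dashed lines 1.3-fold; open symbols mark genes whose signal did not pass the filter, and the asterisk marks *Flt4*, which was not well above background in all 4 channels. Of the other 34 genes, 31 lie below 0 on both arrays, and *Sox17* and *Fli1* lie above 0 on both.

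The receptors carry the signals that make endothelial cells divide, sprout and settle. All 10 receptors that were well above background had a ratio below 0 on both arrays, 5 of them were lower beyond 1.3-fold on each, and their median was -0.44 on array 1 and -0.68 on array 2. *Kdr* encodes VEGFR2, the main receptor for VEGF-A in endothelial growth. Its signal was 261 in wild type and 180 in *Plzf* lu/lu on array 1, and 319 and 160 on array 2, which gave log2 ratios of -0.54 and -0.99 (mean -0.77, SD 0.32, n = 2 arrays). Both *Plzf* lu/lu signals were below both wild type signals. *Kdr* failed the signal filter because its *Plzf* lu/lu signals were under 200.

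*Flt1* encodes VEGFR1, which binds VEGF-A and withholds it from *Kdr*. The brightest of its 4 probes gave -0.30 on array 1 and -1.08 on array 2, short of 1.3-fold on array 1. The mean ratio of the 4 probes ranged from -0.69 at the brightest to -0.01, and 2 of the dimmer probes lay above 0 on array 1, at 0.06 and 0.16. The probes of *Flt1* therefore disagree on the size of the difference and, on array 1, on its direction. *Flt4*, the VEGF-C receptor of sprouting and lymphatic vessels, had signals between 11.0 and 13.8, and on array 1 its wild type spot was not well above background, so it is given without a fold.

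The angiopoietin receptor *Tek* and its partner *Tie1* stabilise young vessels. *Tek* gave 43.1 in wild type and 28.9 in *Plzf* lu/lu on array 1, and 41.8 and 22.0 on array 2, with log2 ratios of -0.57 and -0.92 (SD 0.25). *Tie1* had the lowest mean ratio of the 35 members, -1.22 (SD 0.26), with 27.5 and 10.4 on array 1 and 17.3 and 8.42 on array 2. These are dim spots. On array 1 the lowest signal well above background was 12.3 in wild type and 5.88 in *Plzf* lu/lu, and on array 2 it was 6.85 and 6.71. The part of this gap between the dyes on array 1 in the ratios of *Tie1* and *Tek* was not tested. With normexp background correction and loess the mean ratio of *Tie1* was -0.34 and that of *Tek* -0.43. Neither was then beyond 1.3-fold on both arrays. *Aplnr* lost the call in the same way, at a mean of -0.40. *Eng*, the co-receptor for bone morphogenetic proteins in endothelium, gave 105 and 63.8 on array 1 and 95.0 and 62.7 on array 2, with ratios of -0.72 and -0.60 (SD 0.09). *Aplnr*, the apelin receptor, gave 80.1 and 52.8, then 89.1 and 60.6, with ratios of -0.60 and -0.56 (SD 0.03). For *Tek*, *Tie1*, *Eng* and *Aplnr* alike, both *Plzf* lu/lu signals lay below both wild type signals.

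Adrenomedullin acts through *Calcrl* joined to *Ramp2*. *Ramp2* was the brightest receptor probe and the single receptor to pass the signal filter, at 956 in wild type and 757 in *Plzf* lu/lu on array 1 and 1033 and 724 on array 2. Its ratios of -0.34 and -0.51 fell short of 1.3-fold on array 1 (adjusted p 0.0638 from limma), while its second probe gave -0.78 and -0.67. *Ramp2* gained the call with normexp and centring on the genes past the signal filter (-0.38 and -0.53), though not with centring on the genes well above background (-0.08 and -0.34), with the GC trend of the probes removed (-0.48 and -0.56) and, over the genes well above background, with the mean over its probes (-0.56 and -0.59). *Calcrl* had ratios of -0.10 and -0.59, and the guidance receptor *Robo4* -0.34 and -0.76, so in both the difference beyond 1.3-fold was on array 2. *Robo4* gained the call with the GC trend removed (-0.40 and -0.78). *S1pr1*, the sphingosine 1-phosphate receptor that restrains sprouting, had ratios of -0.19 and -0.02.

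The surface and junction proteins were the role with the most members past the signal filter, 5 of 10, and 3 of those 5 were lower beyond 1.3-fold on each array. *Emcn* encodes endomucin, a sialomucin of venous and capillary endothelium. Its probe (NM_016885, chromosome 3, 137093811 to 137093870, mm9) read 556 in wild type and 360 in *Plzf* lu/lu on array 1, and 528 and 330 on array 2. The log2 ratios were -0.63 and -0.68 (mean -0.65, SD 0.04, n = 2 arrays), and among the 10 bright members *Emcn* alone also passed 1.5-fold on both arrays.

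*Icam2* encodes an adhesion molecule for leukocytes on resting endothelium. Its probe (NM_010494, chromosome 11, 106238971 to 106239030, mm9) read 625 and 442 on array 1 and 564 and 379 on array 2, with ratios of -0.50 and -0.57 (SD 0.05). *Plvap*, which forms the diaphragms of fenestrae and caveolae and is lost from brain vessels as the barrier matures, was probed on chromosome 8 between 74021877 and 74021936 (NM_032398, mm9). It read 374 and 250 on array 1 and 421 and 243 on array 2, with ratios of -0.58 and -0.79 (SD 0.15). In these 3 genes the *Plzf* lu/lu signals lay below both wild type signals, and the arrays differed from each other by less than either differed from 0. When normexp with centring was applied to the genes well above background, *Emcn* (-0.37 and -0.49, mean -0.43) and *Icam2* (-0.27 and -0.41, mean -0.34) were no longer beyond 1.3-fold on both arrays, while *Plvap* was. With the same correction centred on the genes past the signal filter, *Emcn* and *Icam2* kept the call, at means of -0.67 and -0.58.

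*Cldn5* and *Cd34* also passed the filter and differed between the arrays. *Cldn5*, the main claudin of the tight junctions of brain endothelium, read 267 and 220 on array 1 and 356 and 205 on array 2, with ratios of -0.28 and -0.80 (adjusted p 0.0867 from limma), and it gained the call with normexp and centring on the genes past the signal filter (-0.43 and -0.82) but not on those well above background (-0.13 and -0.63). *Cd34*, a sialomucin shared by endothelium and blood progenitors, read 951 and 950 on array 1 and 1410 and 841 on array 2. Its ratio was 0.00 on array 1 and -0.75 on array 2 (adjusted p 0.224 from limma). The lower value of *Cd34* therefore rests on array 2. With normexp and centring on the genes well above background its ratios were 0.28 and -0.54 (mean -0.13).

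Of the dimmer surface proteins, *Cd93*, a lectin-like receptor of sprouting endothelium, read 286 and 201 on array 1 and 348 and 172 on array 2, with ratios of -0.51 and -1.01 (SD 0.36). *Esam*, an adhesion molecule of endothelial tight junctions, read 100.3 and 73.3, then 105.7 and 51.4, with ratios of -0.45 and -1.04 (SD 0.42). Both were lower beyond 1.3-fold on each array, a call that *Esam* lost with normexp and loess (mean -0.52) and *Cd93* with normexp and centring on the genes well above background (mean -0.58). *Cdh5* and *Pecam1*, which most often define endothelium, did not pass 1.3-fold on both arrays. *Cdh5* (VE-cadherin, the adherens junction protein of endothelium) read 127 and 104 on array 1 and 126 and 84.1 on array 2, with ratios of -0.29 and -0.59, and gained the call with the GC trend removed (-0.40 and -0.62). *Pecam1* read 56.2 and 57.8 on array 1 and 65.5 and 51.6 on array 2, with ratios of 0.04 and -0.34. With normexp and centring on the genes well above background its ratios were -0.17 and -0.40. *Clec14a*, a lectin-like protein of tip cells, stood at -0.02 and -0.04, and its mean was 0.03 with normexp and loess. With normexp and centring on the genes well above background its mean was -0.22. *Cdh5*, *Pecam1*, *Kdr*, *Tek* and *Tie1* were all well above background in the 4 channels, so endothelial RNA was measured in both genotypes.

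The transcription factors divided. *Sox18* and *Erg* were lower beyond 1.3-fold on each array, 2 of 9. *Sox18*, a SoxF factor of endothelial fate, read 109 and 75.3 on array 1 and 99.9 and 59.8 on array 2, with ratios of -0.54 and -0.74 (SD 0.14). *Erg*, the Ets factor that keeps endothelial identity, was dim at 24.3 and 10.55 on array 1 and 19.7 and 13.5 on array 2. Its ratios were -1.20 and -0.55, and its mean of -0.88 became -0.30 with normexp and loess, no longer beyond 1.3-fold on both arrays. The lowest signal well above background on array 1 was 12.3 in wild type and 5.88 in *Plzf* lu/lu. The part of this gap in the array 1 ratio of *Erg* was not tested.

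The other Sox and Ets factors did not pass 1.3-fold on both arrays. *Sox7* gave -0.33 and -0.20 and gained the call with normexp and centring on the genes well above background (-0.58 and -0.39), while *Ets1* gave -0.22 and -0.68 at its brightest probe. A second *Ets1* probe that was well above background gave -0.02 and -0.34. *Sox17*, the SoxF factor of arteries and of endoderm, had ratios of 0.40 and 0.25, above 0 in each alternative that was run. *Fli1*, an Ets factor of endothelium, blood and neural crest, passed the signal filter at 287 and 339 on array 1 and 282 and 287 on array 2, with ratios of 0.24 and 0.03 (adjusted p 0.361 from limma). Its mean of 0.13 turned to -0.02 when the arrays were corrected with normexp and centred on the genes past the signal filter, and was 0.22 when they were centred on those well above background.

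*Tal1*, *Lyl1* and *Lmo2* encode parts of one transcription factor complex of blood and endothelial progenitors, and *Tal1* is also active in neurons of the midbrain. All 3 were lower beyond 1.3-fold on array 1, and none was on array 2. *Lyl1* read 935 in wild type and 476 in *Plzf* lu/lu on array 1, and 411 and 375 on array 2, with ratios of -0.98 and -0.13. *Lmo2* read 449 and 330, then 335 and 322, with ratios of -0.45 and -0.06. With normexp and centring on the genes well above background *Lmo2* had -0.24 and 0.05, short of 1.3-fold on array 1. *Tal1* read 478 and 241, then 191 and 170, with ratios of -0.99 and -0.17. The wild type sample of array 1 stood apart, at a median of 1.19 on the log2 scale above the wild type sample of array 2 over these 3 genes, against 0.35 between the *Plzf* lu/lu samples, with no scaling between the arrays (the same medians over the 23283 genes were -0.02 and -0.01). The other 31 members well above background had medians of -0.07 and 0.16 in the same comparison.

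The secreted and intracellular members were below 0 on both arrays in 5 of 5 cases. *Egfl7*, a matrix protein that endothelial cells secrete and the brightest of the 35 probes, read 3687 and 3297 on array 1 and 4141 and 3109 on array 2. Its ratios were -0.16 and -0.41 (adjusted p 0.122 from limma). With normexp and centring on the genes well above background they were 0.17 and -0.18 (mean -0.005), so the direction on array 1 turned. *Vwf*, the clotting factor stored in endothelial granules, was the 1 member of this role lower beyond 1.3-fold on each array, at 191 and 139, then 130 and 90.4, with ratios of -0.46 and -0.52. A second *Vwf* probe that was well above background gave 0.06 and 0.56, in the opposite direction, and the mean over both probes was -0.09. *Vwf* also lost the call with normexp followed by loess (mean -0.37) or by centring (mean -0.40). *Mmrn2*, *Rasip1* and *Nos3*, which encode a matrix ligand of *Cd93* and *Clec14a*, a regulator of vessel lumens and endothelial nitric oxide synthase, had ratios between -0.30 and -0.12 on array 1 and between -0.87 and -0.63 on array 2.

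**Figure D2:**
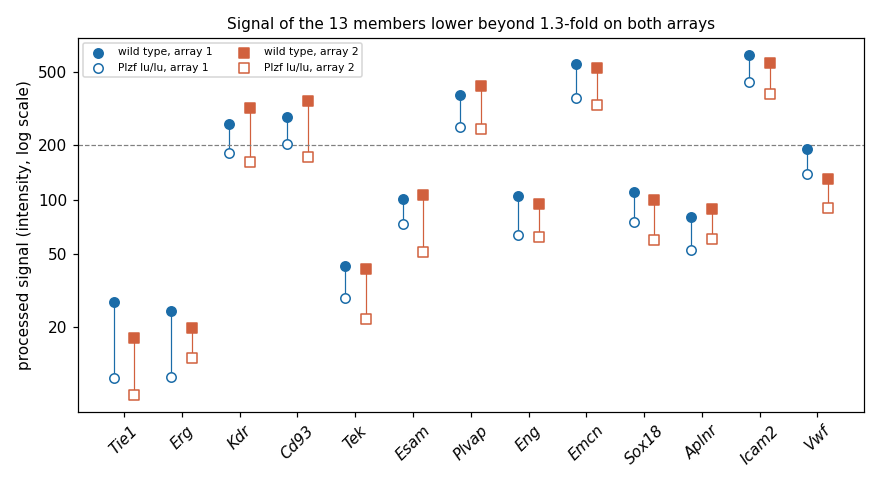
Processed signal (intensity, log scale) of the 13 members lower beyond 1.3-fold on both arrays, in wild type (filled) and *Plzf* lu/lu (open) on array 1 (circles) and array 2 (squares), with lines joining the channels of an array and the dashed line at a signal of 200. In 12 of the 13 both *Plzf* lu/lu signals lie below both wild type signals, and *Vwf* is the exception.

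The arrays differed in how far the members stood from 0. On array 1, 16 of the 34 members well above background were lower beyond 1.3-fold, where 9.67% of all such genes were, and on array 2 there were 25, where 5.12% were. The median of the members was -0.34 on array 1 and -0.59 on array 2, and 25 of the 34 had the lower ratio on array 2. A ratio below 0 on both arrays was found in 31 members (91.2%), against 33.2% of the genes. Both *Plzf* lu/lu signals were below both wild type signals in 27 of 34, against 22.4% of the genes. The summed signal of the 35 members was 12286 in wild type and 9803 in *Plzf* lu/lu on array 1, and 12692 and 8821 on array 2. Bright probes weigh most in these sums. *Egfl7* alone read 3687 and 3297 on array 1 and 4141 and 3109 on array 2. The array 1 sums also hold *Lyl1* (935 and 476) and *Tal1* (478 and 241).

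Further endothelial genes outside the 35 are given beside the members, with no test of the difference between them. At an unadjusted p under 0.05 in limma over the genes well above background, 8 of 16 other receptors were lower and 3 higher. Of 17 other surface proteins, 6 were lower and 0 higher. Of 16 other transcription factors, 5 were lower and 2 higher, and of 13 other intracellular proteins 5 were lower and 1 higher. Beside these, 8.11% of all genes were lower by that test, and the share higher is not given here. By fold, 3 of the 16 other receptors were lower (*Plxnd1*, *Ptprb*, *Thbd*) and 2 higher (*Mcam*, *Nrp2*) beyond 1.3-fold on both arrays, and the median was -0.27. Past the signal filter the median of this list had the opposite sign, 0.08 over 8 genes with 1 lower and 2 higher. *Plxnd1*, the semaphorin 3E receptor of vessels, read 905 and 657 on array 1 and 870 and 475 on array 2, with ratios of -0.46 and -0.87, and is in the study's own list. *Mcam* had ratios of 0.58 and 0.55. *Nrp2*, a co-receptor for VEGF-C and semaphorins that neural cells also make, had 0.55 and 0.57. Of 17 other surface proteins, 1 was lower, *Tm4sf1* with -0.90 and -0.50, again a gene of the study's list, and the median was -0.18 (-0.09 over the 4 past the filter). *Tjp1*, the brightest of these and a junction protein of neuroepithelium too, had 0.71 and 0.18. Of 13 other intracellular proteins, 3 were lower and 1 higher, with *Rhoj*, a small GTPase of endothelial migration, at -0.80 and -0.53, *Fgd5* at -0.42 and -0.77, *She* at -0.40 and -0.61, and *Arhgef15*, the brightest, at 0.46 and 0.49. The median of these 13 was -0.06, and 0.00 over the 6 past the filter. Of 16 other transcription factors, 0 were lower and 1 was higher beyond 1.3-fold on both arrays, *Nr2f2* (0.48 and 0.65), which directs vein identity and is also made by forebrain progenitors. Their median was -0.18, and 0.04 over the 5 past the filter, and the brightest, the Notch target *Hey1*, had 0.35 and 0.55. *Ptprb*, *Thbd*, *Fgd5* and *She* were below the signal filter and were named after their values were seen.

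Of 15 ligands of these receptors that were well above background, 1 was lower (*Tgfb1*, -1.24 and -0.64) and 1 higher (the array's *Figf*, which encodes VEGF-D, 0.41 and 0.44), both under the signal filter and named after their values were seen, and the median was 0.03. *Cxcl12*, the brightest, had -0.13 and -0.14. *Vegfa*, the ligand of *Kdr*, had 0.29 and 0.38, and was named after its values were seen. At an unadjusted p under 0.05 in limma, over the genes well above background, 1 of the 15 ligands was lower and 3 were higher. Genes of the blood-brain barrier and of the neural signals to vessels had a median of 0.10 over 16, with 0 lower and 1 higher, *Itgb8* (0.44 and 0.74), the integrin by which neural cells activate TGF-beta. Past the signal filter the median of this list was 0.20 over 13 genes. The brightest gene of the list, the glucose transporter *Slc2a1*, had 0.59 and 0.03. Of 15 basement membrane genes, 2 were lower, *Sparcl1* (-0.71 and -0.59, in the study's list) and the laminin chain *Lama4* of vessel walls (-0.74 and -0.80, named after its value was seen), and the list median was -0.04, and 0.02 over the 12 past the filter. Their brightest gene, *Sparc*, had 0.03 and -0.12. At the same unadjusted p in limma, 3 of the 15 basement membrane genes were lower and 1 higher. Of the 16 barrier genes, 0 were lower and 2 higher. By that test 8.11% of all genes were lower, and the share higher is not given here.

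**Figure D3:**
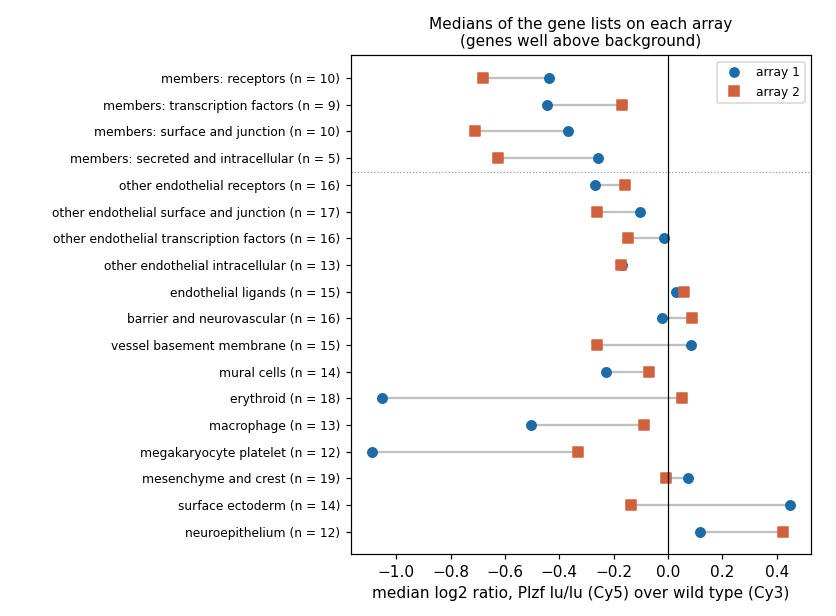
Median log2 ratio of Cy5 (*Plzf* lu/lu) to Cy3 (wild type) on array 1 (circles) and array 2 (squares) for each gene list, over its n genes well above background; the dotted line divides the 35 members, by role, from the other lists. The 4 member groups lie below 0 on both arrays, between -0.71 and -0.17, while the erythroid median lies at -1.05 on array 1 and 0.05 on array 2.

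Markers of other cells in the tissue are given beside these values, and the part of those cells in the endothelial result was not tested. All 18 erythroid genes were lower beyond 1.3-fold on array 1 and 2 of them (*Rhag*, and *Epb42*, which the array calls *Epb4.2*; both named after their values were seen) also on array 2. Their summed signal was 592697 in wild type and 314741 in *Plzf* lu/lu on array 1, and 240340 and 295478 on array 2, and the brightest, the embryonic globin *Hbb-y*, had ratios of -0.80 and 0.52. *Tal1*, *Lyl1* and *Lmo2* followed this pattern between the arrays. On array 2, where the erythroid sum was higher in *Plzf* lu/lu, the 31 other members had a median of -0.63, and on array 1 one of -0.33.

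Platelet and megakaryocyte genes had medians of -1.09 on array 1 and -0.33 on array 2, with 4 of 12 lower beyond 1.3-fold on both. *Pf4*, the brightest and a gene of the study's list, had ratios of -1.34 and -0.43, and the other 3 (*Itga2b*, *Itgb3* and *Gp6*) were under the signal filter and named after their values were seen. The summed signal of the 12 was 5268 and 2476 on array 1 and 2070 and 1557 on array 2. At an unadjusted p under 0.05 in limma 8 of the 12 were lower and 0 higher, beside 8.11% of all genes lower. Of the 12, 11 were below 0 on both arrays. Macrophage genes had medians of -0.51 and -0.09, with 0 of 13 lower on both arrays and 3 lower at an unadjusted p under 0.05 in limma. Their sum was 5586 and 4379 on array 1 and 4645 and 4428 on array 2, *Itgam* was the brightest (-0.14 and -0.09), and *Spi1* was not well above background in all 4 channels.

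Mural cells wrap the endothelium, and their 14 markers were well above background throughout. One of them, the smooth muscle gene *Tagln*, was lower beyond 1.3-fold on both arrays (-0.44 and -0.48), and the list had medians of -0.23 and -0.07. Its sum was 14014 and 11607 on array 1 and 12061 and 10715 on array 2, with *Acta2* the brightest (-0.39 and -0.21). Of the 14 markers, 4 were lower and 0 higher at an unadjusted p under 0.05 in limma, beside 8.11% of all genes lower. Mesenchyme and neural crest, which surround the brain and hold vessels of their own, had medians of 0.07 and -0.01 over 19 genes, with *Sox10* lower (-0.39 and -0.65) and *Alx1* higher (0.74 and 0.75), both under the filter and named after their values were seen. Their sum was 29657 and 32899 on array 1 and 27162 and 26502 on array 2, *Msx1* was the brightest (0.23 and -0.01), and *Foxd3* was not well above background in all 4 channels. With 19 of 20 such genes measured, the arrays do not separate vessels inside the brain from those of the tissue around it.

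Surface ectoderm had medians of 0.45 and -0.13 over 14 genes, with sums of 10814 and 15902 on array 1 and 14810 and 11931 on array 2. *Krt18* was its brightest gene (0.69 and -0.34), and *Grhl3* (0.63 and 0.79) was higher on both arrays and was named after its values were seen. Neuroepithelial genes, from the main cells of the tissue, had medians of 0.12 and 0.42 over 12 genes, and *Sox2* (0.44 and 0.47) and *Cdh2* (0.60 and 0.44) were higher beyond 1.3-fold on both arrays, of which *Sox2* is in the study's list. Their sum was 45259 and 45308 on array 1 and 42442 and 55421 on array 2, with *Vim* the brightest (0.10 and 0.18). At an unadjusted p under 0.05 in limma, over the genes well above background, 3 of 18 erythroid genes were lower and 0 higher. By that test 8.11% of all genes were lower, and the share of all genes higher is not given here. Of 19 mesenchyme and crest genes 1 was lower and 4 higher by that test. Surface ectoderm and neuroepithelium each had 0 lower and 2 higher.

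The median GC content of the probes was 43.3% in the 34 members and 43.3% in the 23283 genes well above background, and past the signal filter it was 44.2% in the 10 members and 41.7% in the 10600 genes. The set of RefSeq promoter windows (GRCm38.p6) used here held 17 of the 35 members, 22 windows in all. Because Ets factors recognise a GGAA core, the 250 bases before each start were searched on both strands for CCGGAA and CAGGAA, which share their last 4 letters. CCGGAA was found in 2 of the 22 windows and in 12% of the 32851 windows of all genes, and CAGGAA in 12 of 22 and in 25.7%. A match is a description of the letters and not a binding site.

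Of the 13 members lower on both arrays, the windows of *Emcn* and of the receptors *Tie1*, *Kdr*, *Tek* and *Eng* are printed here 5′ to 3′. The set of windows used here held these receptors but not *Aplnr*. Of the 3 lower members past the signal filter it held *Emcn* alone. *Tek* and *Tie1* lost that call with normexp and loess, and *Emcn* with normexp and centring over the genes well above background. The choice was made after their values were seen, and capitals mark CCGGAA and CAGGAA or their reverse complements, TTCCGG and TTCCTG. The *Emcn* window lies at chr3:137340828-137341077 on the plus strand and holds 2 matches to CAGGAA. That of *Tie1* lies at chr4:118489850-118490099 on the minus strand with 1 match to CAGGAA, and that of *Kdr* at chr5:75978456-75978705 on the minus strand with 1 match to CCGGAA. The *Tek* window, at chr4:94739039-94739288 on the plus strand, holds 2 matches to CAGGAA, and the *Eng* window, at chr2:32646345-32646594 on the plus strand, has 0 of either.
Emcn: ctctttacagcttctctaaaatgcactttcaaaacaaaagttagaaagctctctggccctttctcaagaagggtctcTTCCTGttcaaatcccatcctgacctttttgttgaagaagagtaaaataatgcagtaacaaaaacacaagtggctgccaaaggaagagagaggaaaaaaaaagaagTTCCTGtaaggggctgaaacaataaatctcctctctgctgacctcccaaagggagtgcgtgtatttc
Tie1: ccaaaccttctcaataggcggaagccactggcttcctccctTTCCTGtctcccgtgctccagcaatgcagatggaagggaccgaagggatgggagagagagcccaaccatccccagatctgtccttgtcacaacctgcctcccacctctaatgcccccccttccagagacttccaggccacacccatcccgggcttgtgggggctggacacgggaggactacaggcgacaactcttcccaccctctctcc
Kdr: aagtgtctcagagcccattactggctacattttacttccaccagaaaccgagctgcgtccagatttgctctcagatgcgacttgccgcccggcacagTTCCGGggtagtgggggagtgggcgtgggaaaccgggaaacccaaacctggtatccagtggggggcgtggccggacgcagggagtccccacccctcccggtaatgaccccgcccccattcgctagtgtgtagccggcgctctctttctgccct
Tek: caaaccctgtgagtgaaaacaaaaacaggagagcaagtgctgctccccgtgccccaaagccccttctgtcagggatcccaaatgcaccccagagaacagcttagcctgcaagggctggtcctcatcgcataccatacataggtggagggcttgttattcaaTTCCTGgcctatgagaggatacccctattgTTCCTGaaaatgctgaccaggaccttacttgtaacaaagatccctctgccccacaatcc
Eng: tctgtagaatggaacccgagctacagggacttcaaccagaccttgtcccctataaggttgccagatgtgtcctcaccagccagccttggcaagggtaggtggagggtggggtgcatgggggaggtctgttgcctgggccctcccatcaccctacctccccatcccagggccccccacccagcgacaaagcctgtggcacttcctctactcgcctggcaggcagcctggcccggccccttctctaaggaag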

How the data were processed

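The authors ran Feature Extraction 10.7.3.1 on the scans of 2 arrays with 2 dyes, both on the same slide. It removed the local background, gave dim spots a surrogate value and balanced the dyes of an array by a LOWESS fit to rank-consistent probes, with no scaling between arrays. The deposited files hold each spot's processed intensity and the log10 ratio of its dyes (Cy5 over Cy3). A further deposited table holds the same ratio as log2, uncentred and rounded to within 0.005, with a median of 0 on each array. Positions of probes come from the annotation in those files (mm9).

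Starting from the processed intensity, spots flagged as control or outlier were dropped, repeated spots of a probe were averaged as log2, and the brightest probe of a gene was used. Signal-to-noise divided the mean signal above the local background median by the SD of the background pixels. Well above background is the flag of the deposited files. Genes were tested with limma 3.58.1 in R 4.3.3 (intercept, eBayes) with Benjamini-Hochberg adjustment, which with 1 residual degree of freedom rests on the variance pooled over genes. The array pairs its channels. Files were read with version 1.17.8 of data.table, lists were summarised with pandas 2.3.3 and numpy 2.4.6 under Python 3.11.15, and figures were drawn with matplotlib 3.10.9. The procedure was also run on simulated ratios, with a shift larger than the median of the members and no dye effect. That run does not test the procedure at the size of difference seen here.

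The members and gene lists were chosen with earlier results of these data known. All 35 members are accounted for by role. The rule gave values for the members past the signal filter or past 1.3-fold one way on each array while well above background, with the markers *Cdh5*, *Pecam1*, *Kdr*, *Tek* and *Tie1* always named, and the other members were to be given by range and counts; single ratios of those others were added after their values were seen. Also named are the genes of the other lists beyond 1.3-fold on both arrays, the brightest gene of a list, and *Zbtb16*. *Vegfa* was added after its values were seen. The array did not carry *Apela* and *Exoc3l2* under those names. Alternatives were normexp (offset 50) with loess or with centring, the deposited log2 table, other filters on dim spots, the mean over probes, removal of the trend on probe GC content (lowess, span 0.67), a threshold of 1.5-fold, eBayes with trend, channels without the pairing, and each array alone. Giving the results over genes well above background beside the main ones, each with its own alternatives, was chosen after seeing the data.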

Additional observations from a re-analysis of the deposited data

How the results depend on the processing

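The median of the members stayed below 0 under each alternative that was run, between -0.52 and -0.43 over the members past the signal filter and between -0.54 and -0.39 over those well above background, leaving aside other filters and single arrays. Each array alone gave medians between -0.54 and -0.39 in the first set and between -0.59 and -0.34 in the second.

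The number of members lower beyond 1.3-fold depended on the filter and the threshold. From 3 of 10 it went to 13 with genes well above background, 13 with no filter and 5 with the filter passed in at least 1 channel. A filter changes how many members are tested. With normexp and centring it was 5, where 1.13% of all genes were lower (*Cldn5* and *Ramp2* gained the call). With the GC trend removed it was 4, where 0.774% of all genes were lower (*Ramp2* gained the call). At 1.5-fold the count was 1. The shares of all genes at 1.5-fold, with no filter and with the filter in at least 1 channel are not given here. With 1 array alone it was between 5 and 7. *Emcn*, *Icam2* and *Plvap* were among the lower members in each of the 5 alternative computations of the ratio under the signal filter. Over the members well above background the count of 13 fell to 7 with normexp and loess, where 0.588% of all genes were lower (*Aplnr*, *Erg*, *Esam*, *Tek*, *Tie1* and *Vwf* lost the call; the cause was not tested), and to 3 at 1.5-fold (*Eng*, *Tie1*, *Emcn*). It was between 16 and 25 with 1 array alone. Normexp with centring gave 10, with 8.25% of all genes lower, where *Cd93*, *Emcn*, *Icam2* and *Vwf* lost the call and *Sox7* gained it. Removal of the GC trend gave 16, with 2.17% of all genes lower, and *Cdh5*, *Ramp2* and *Robo4* gained the call. The mean over probes gave 13, with *Ramp2* gained and *Vwf* lost. *Eng*, *Kdr*, *Plvap* and *Sox18* were lower in all 5 computations over the genes well above background. No member was higher on both arrays in any of them, and with 1 array alone between 0 and 1 was (*Sox17*, on array 1).

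The count at adjusted p under 0.05 in limma was 0 of 10, and it became 5 with normexp and centring, 4 with the GC trend removed and 3 with eBayes with trend, where 14.7%, 6.65% and 3.71% of all genes tested reached that level; the cause was not tested. Without the pairing by array it was 0. Over the members well above background it was 0, and 24 of 34 with normexp and centring, where 46% of all genes reached it. Signal over background limits these values, since 25 of the 35 members did not pass the signal filter.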
